A study of Rattus norvegicus and Mus musculus with 34 samples.

Results

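The 10 genes described here encode the receptor for bacterial lipopolysaccharide (LPS), the adaptors that carry its signal into the cell and 5 proteins that switch the signal off again. They are Tlr4, Cd14 and Ly96 (receptor complex), Myd88 and Ticam1 (adaptors), and Irak3, Tnfaip3, Nfkbia, Socs3 and Zfp36 (feedback inhibitors). They were picked by gene symbol as a named part of the pathway, with earlier results of these data known, and each was found once among 20022 genes measured in rat healing tissue and once among 51912 entries measured in mouse macrophages. All 10 passed the filter on low counts in every comparison.

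In vivo, a standardized bone defect was made on the buccal side of the mandible of male wild-type Sprague-Dawley rats aged 6 to 8 weeks, and RNA was sequenced from the tissue healing inside the defect at days 3, 7 and 14. In sensory nerve- rats the inferior alveolar nerve, which carries sensation from the mandible, was transected in the same operation, whereas in sensory nerve+ rats it was left intact. Every rat carried the defect, so each comparison is between injured tissues. There were 4 rats in each of the 6 groups except sensory nerve+ day 3, which had 3, giving 23 rats. In vitro, RAW 264.7 cells, an established mouse macrophage line, received LPS (100 ng/ml) for 6 h with or without 10 nM calcitonin gene-related peptide (CGRP), a neuropeptide released by sensory nerve endings. There were 6 LPS samples and 5 LPS+CGRP samples, all of 1 cell line, and unstimulated cells were not analysed here, so the response to LPS itself was not measured.

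Toll-like receptor 4 (Tlr4) recognises LPS only together with the small secreted protein MD-2 (Ly96), and CD14 (Cd14) hands LPS over to this pair. MyD88 (Myd88) then starts a fast branch that ends in NF-κB and cytokines such as TNF, while TRIF (Ticam1) starts a slower branch that ends in interferon-type genes. The feedback proteins act at successive steps: IRAK-M (Irak3) blocks the kinases below MyD88, A20 (Tnfaip3) edits ubiquitin chains on signalling proteins, IκBα (Nfkbia) holds NF-κB in the cytoplasm, SOCS3 (Socs3) limits cytokine receptors that use STAT3, and tristetraprolin (Zfp36) marks cytokine mRNAs such as that of TNF for decay. In macrophages several of the feedback genes are themselves switched on by NF-κB, so their mRNA can report that the pathway was active.

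Because several of these feedback genes are known NF-κB targets, the 250 bases before the annotated start of each rat gene were read. They came from RefSeq (GRCr8, which is not the build used for aligning the reads). A window was given for 8 of the 10 members. A 10-letter NF-κB consensus, searched on both strands, was present in 4 of these 8 windows, against 6.33% of 33469 rat promoter windows of the same length. The 4 windows are shown because they belong to 4 of the 5 feedback genes, written 5′ to 3′ on the strand of the gene, with the matching bases in capitals. They lie at chr7:57598632-57598881 (Irak3), chr1:15543980-15544229 (Tnfaip3), chr6:78597073-78597322 (Nfkbia) and chr10:103694769-103695018 (Socs3), all on the minus strand.
Irak3: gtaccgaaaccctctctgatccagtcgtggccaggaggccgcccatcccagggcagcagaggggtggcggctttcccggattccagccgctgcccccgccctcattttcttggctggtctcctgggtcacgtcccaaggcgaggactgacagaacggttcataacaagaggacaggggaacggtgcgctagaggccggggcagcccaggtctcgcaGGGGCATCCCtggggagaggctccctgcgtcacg
Tnfaip3: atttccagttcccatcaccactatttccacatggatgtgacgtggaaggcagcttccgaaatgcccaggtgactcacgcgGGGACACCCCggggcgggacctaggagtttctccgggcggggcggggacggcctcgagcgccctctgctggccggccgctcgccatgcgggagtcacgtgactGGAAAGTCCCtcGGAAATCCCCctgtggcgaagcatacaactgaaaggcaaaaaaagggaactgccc
Nfkbia: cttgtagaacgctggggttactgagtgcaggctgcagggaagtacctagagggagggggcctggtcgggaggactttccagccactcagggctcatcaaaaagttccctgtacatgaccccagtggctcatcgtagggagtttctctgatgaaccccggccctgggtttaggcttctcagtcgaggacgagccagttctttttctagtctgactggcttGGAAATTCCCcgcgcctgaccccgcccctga
Socs3: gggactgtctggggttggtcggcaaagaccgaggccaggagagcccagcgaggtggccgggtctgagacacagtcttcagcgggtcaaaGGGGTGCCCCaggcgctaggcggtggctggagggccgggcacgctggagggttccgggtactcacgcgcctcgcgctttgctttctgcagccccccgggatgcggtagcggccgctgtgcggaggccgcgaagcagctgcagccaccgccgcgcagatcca
Tnfaip3 held 3 matches and the other genes 1 each. The window of Zfp36 held none, nor did those of Tlr4, Cd14 and Myd88. The STAT motif TTCNNNGAA was in 1 of the 8 windows, that of Myd88, against 7.67% of all windows, and the cAMP response element TGACGTCA was in 0 of 8 against 1.59%. A match is a run of letters in this window and was not tested for binding.

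The rat libraries held 14854598 to 18742423 counts and the macrophage libraries 55614185 to 71538840 reads. Levels are given in CPM after each library's total was adjusted by the TMM method, so they do not add up to the same total in every library. Differences are given as log2 fold changes. Gene lengths were not used in the rat, so levels there are compared between rats and not between genes. The tissue was a mixture: macrophage markers (Lyz2, Csf1r, Cd68) were present in every rat beside those of fibroblasts, endothelium, muscle and blood, and with bulk RNA fewer cells of a type and less RNA per cell cannot be told apart. The 6 haemoglobin genes took from 0.263% to 50.1% of a library, with a group median of 29.6% in sensory nerve- day 14 against 2.46% to 12.1% in the other groups. The RAW 264.7 cells held Lyz2, Cd68, Csf1r, Itgam and Adgre1 at 150.2 CPM or more on average with LPS, whereas Cd163, Mertk, C1qa and C1qb, markers of tissue macrophages, were at or near 0. Of the rat data, the sensory nerve- day 7 libraries came in a table of their own, so at day 7 the table and the transection cannot be told apart. In sensory nerve- rats the table and the day likewise cannot be told apart in the steps from day 3 to 7 and from day 7 to 14. The pooled and interaction tests also include these libraries.

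Over the 23 rats the members spanned different ranges. Socs3 ran from 13.3 to 145 CPM, a 10.9-fold range, and Cd14 from 30.1 to 297 CPM, a 9.88-fold range. The narrowest range was that of Ticam1, from 8.04 to 23.4 CPM. The rarest member, Tlr4, was still counted at least 88 times in each library. The days are described first, then the nerve.

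**Figure D1:**
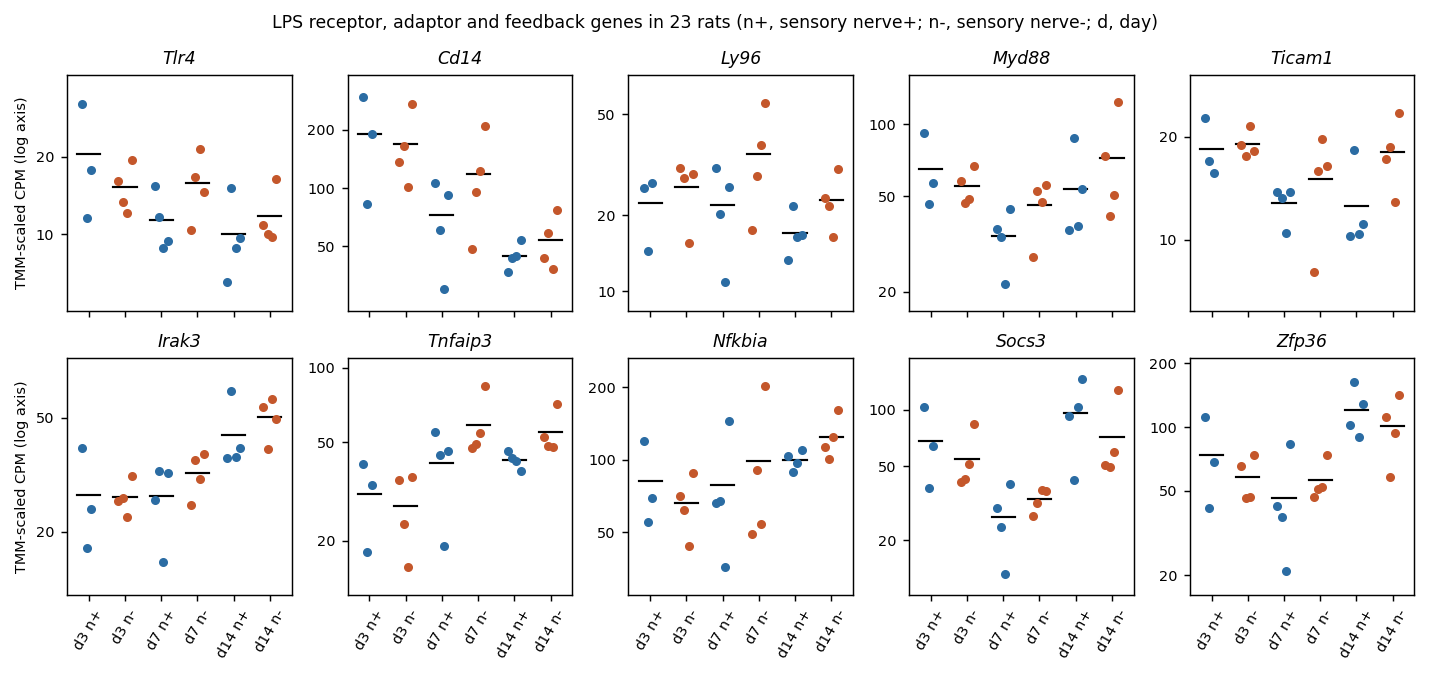
Levels of the 10 genes in each of the 23 rats, as TMM-scaled CPM on log axes that differ between panels; blue points are sensory nerve+ rats, orange points sensory nerve- rats, bars are group means, and d is the day. In both nerve states the mean of Cd14 is lower at day 14 than at day 3, that of Irak3 is higher, and that of Socs3 is lowest at day 7.

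Cd14 was the member with the largest difference over time, and it was lower at day 14 in both nerve states. In sensory nerve+ rats Cd14 was 297, 83.1 and 191.5 CPM at day 3, 106.7, 60.9, 30.1 and 92.1 CPM at day 7 and 37.1, 43.5, 44.7 and 54.1 CPM at day 14. Every day 14 rat lay below every day 3 rat, while day 7 overlapped both. The mean fell from 190.7 ± 107 (SD, n = 3) to 44.8 ± 7.01 CPM (SD, n = 4), 0.240 of the day 3 level. The log2 fold change was -2.06 (SE 0.385, edgeR quasi-likelihood test with Benjamini-Hochberg adjustment over all genes tested, adjusted p = 0.0411). Of all genes tested 5.78% passed in this comparison, and 3.09% of all genes tested passed and were lower at day 14. It was lost in 5 of the 7 fits that each left out 1 rat (day 3 replicate 1 or 3, or day 14 replicate 1, 3 or 4), with adjusted p from 0.0315 to 0.142 and a log2 fold change from -2.42 to -1.60 over the 7 fits.

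In sensory nerve- rats Cd14 was 136.8, 164.3, 102.0 and 272 CPM at day 3, 48.3, 96.0, 123.2 and 209 CPM at day 7 and 43.5, 58.5, 38.1 and 76.9 CPM at day 14. Again the day 3 and day 14 rats did not overlap and the day 7 rats lay across both. The mean fell from 169 ± 73.5 to 54.2 ± 17.4 CPM (SD, n = 4 each). The log2 fold change was -1.69 (SE 0.335, edgeR adjusted p = 0.0124). This call held in all 8 fits without 1 rat. The steps through day 7 did not pass by themselves. From day 3 to day 7 the log2 fold change of Cd14 was -1.36 (SE 0.530, adjusted p = 0.170) with the nerve and -0.52 (SE 0.449, adjusted p = 0.481) without it, and from day 7 to day 14 it was -0.67 (SE 0.351, adjusted p = 0.575) and -1.13 (SE 0.425, adjusted p = 0.169).

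The other components of the receptor did not pass in any of these comparisons. Tlr4, the signalling chain, was 20.5 ± 10.6 CPM at day 3 and 10.0 ± 3.67 CPM at day 14 in sensory nerve+ rats, a log2 fold change of -1.0 (95% interval -1.97 to -0.04, adjusted p = 0.165). It was 15.3 ± 3.28 and 11.8 ± 3.17 CPM in sensory nerve- rats, a log2 fold change of -0.42 (95% interval -0.94 to 0.10). A fit over all 23 rats called the decrease of Tlr4 with the nerve (adjusted p = 0.0431). Ly96 was 22.2 ± 6.78 and 17.0 ± 3.52 CPM with the nerve and 25.8 ± 6.93 and 22.9 ± 5.77 CPM without it, with intervals that included 0 in both.

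Macrophage markers stood as follows beside these values. The summed level of the 10 macrophage markers had group medians of 6382, 5213 and 3100 CPM at days 3, 7 and 14 with the nerve. Without it the medians were 5630, 9732 and 4655 CPM. That sum adds the CPM of the markers, so the most abundant ones weigh most in it. The part of macrophages in the level of Cd14 was not tested, nor was that of neutrophils in the sum. Set against that sum within each rat, Cd14 was 2.09% to 3.56% at day 3 and 0.863% to 1.37% at day 14 in sensory nerve- rats, without overlap. In sensory nerve+ rats the same share was 1.69% to 3.86% at day 3 and 0.403% to 2.33% at day 14, with overlap. The 0.403% came from day 14 replicate 2, whose macrophage marker sum of 10792 CPM was the highest of its group. In that rat 8 neutrophil markers summed to 6130 CPM. Tlr4 was 0.246% to 0.316% of the sum at day 3 and 0.216% to 0.320% at day 14 in sensory nerve- rats, so its share overlapped between those days.

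The adaptors showed no called difference between days. Myd88 was 64.9 ± 23.7, 34.0 ± 9.44 and 53.6 ± 23.7 CPM at days 3, 7 and 14 with the nerve and 54.9 ± 9.23, 45.8 ± 12.4 and 72.3 ± 36.8 CPM without it. In sensory nerve+ rats the day 3 values of Myd88 (91.6, 46.3 and 56.8 CPM) all lay above those of day 7 (36.4, 33.9, 21.5 and 44.3 CPM), and the log2 fold change was -0.89 (SE 0.307, adjusted p = 0.130). Ticam1 likewise did not overlap in that step, at 15.7 to 22.7 CPM on day 3 and 10.5 to 13.8 CPM on day 7 (log2 fold change -0.48, SE 0.192, adjusted p = 0.177). These 2 of 10 members without overlap stood beside 25.4% of all genes, a similar share. No member passed in that step, in which 6.67% of all genes were called.

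In sensory nerve- rats 3 of the 5 feedback genes, Irak3, Tnfaip3 and Nfkbia, rose from day 3 to day 14, a comparison in which 8.89% of all genes were called higher. Irak3 was 25.5, 26.3, 22.5 and 31.3 CPM at day 3 and 54.6, 38.8, 58.1 and 49.6 CPM at day 14. Every day 14 rat exceeded every day 3 rat, and the mean rose from 26.4 ± 3.65 to 50.3 ± 8.40 CPM (SD, n = 4 each). The log2 fold change of Irak3 was 0.89 (SE 0.166, edgeR, adjusted p = 0.0102), and it held in all 8 fits without 1 rat.

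Tnfaip3 was 35.3, 23.5, 15.7 and 36.2 CPM at day 3 and 52.8, 48.2, 47.8 and 71.6 CPM at day 14 in the same rats. The groups did not overlap, and the mean rose from 27.7 ± 9.85 to 55.1 ± 11.2 CPM (log2 fold change 0.95, SE 0.268, adjusted p = 0.0367). Nfkbia, which restores inhibition of NF-κB after each round of activation, was 70.9, 61.9, 43.9 and 88.0 CPM at day 3 and 113.5, 101.1, 124.0 and 161 CPM at day 14. It too separated fully, rising from 66.2 ± 18.4 to 125 ± 25.8 CPM (log2 fold change 0.87, SE 0.224, adjusted p = 0.0274). The calls of Tnfaip3 and Nfkbia held in 3 of the 8 fits without 1 rat, with adjusted p up to 0.0963 and 0.0745 in the others; they were lost without sensory nerve- day 3 replicate 1 or 2 or without sensory nerve- day 14 replicate 1, 3 or 4.

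Zfp36 and Socs3 were the feedback genes that did not pass from day 3 to day 14 in sensory nerve- rats. Zfp36 was 58.1 ± 13.8 and 101 ± 34.8 CPM (log2 fold change 0.76, 95% interval 0.12 to 1.39, adjusted p = 0.0824). Socs3 was 54.8 ± 19.9 and 71.9 ± 37.7 CPM (log2 fold change 0.34, 95% interval -0.49 to 1.17). In all, 4 of the 10 members passed in this comparison, 3 higher and 1 lower, against 23.5% of all genes (8.89% higher and 14.6% lower). The same 4 members had no overlap between the days, against 26.7% of all genes.

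The size of these differences depended on the scaling. With each library scaled to its total instead of by TMM, the median of all genes moved by -0.42; the haemoglobin share of these day 14 libraries is given above, and its part was not tested. Under that scaling Cd14 alone passed (log2 fold change -2.03), and Irak3, Tnfaip3 and Nfkbia stayed positive at 0.44, 0.57 and 0.45 with adjusted p of 0.322, 0.293 and 0.343. With the haemoglobin genes left out before TMM, an alternative chosen after seeing the data, the same 4 members passed.

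In sensory nerve+ rats all 5 feedback genes had positive log2 fold changes from day 3 to day 14, from 0.32 for Nfkbia to 0.73 for Zfp36, and none passed. Irak3 was 39.1, 17.6 and 24.0 CPM at day 3 and 36.1, 61.9, 36.4 and 39.2 CPM at day 14, and the groups overlapped through day 3 replicate 1 (log2 fold change 0.72, 95% interval -0.04 to 1.47, adjusted p = 0.196). Cd14 was the only member without overlap in this comparison, against 24.5% of all genes. The difference between the nerve states in the day 14 against day 3 change was 0.24 for Irak3, 0.53 for Tnfaip3, 0.62 for Nfkbia and 0.45 for Cd14 on the log2 scale. The test of the interaction between transection and day gave adjusted p = 0.998 for each of the 10 members, so the changes without the nerve were not shown to differ from those with it.

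**Figure D2:**
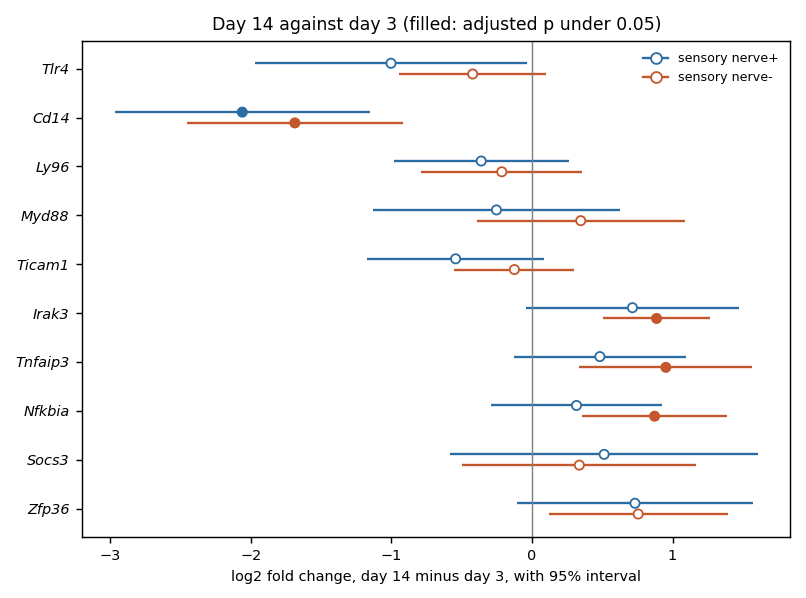
Log2 fold change from day 3 to day 14 for each gene, with its 95% interval, in sensory nerve+ (blue) and sensory nerve- rats (orange); filled points passed the adjusted p threshold of 0.05. Cd14 passed in both nerve states at -2.06 and -1.69, and Irak3, Tnfaip3 and Nfkbia passed only in sensory nerve- rats, a difference that the interaction test did not call.

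None of the members passed in the steps through day 7, and the values of the feedback genes there are given gene by gene. Socs3 was 103, 38.0 and 63.9 CPM at day 3, 29.7, 23.6, 13.3 and 39.9 CPM at day 7 and 92.6, 42.3, 103 and 145 CPM at day 14 in sensory nerve+ rats. Its day 7 rats lay below every day 14 rat, and 1 of them overlapped day 3. The log2 fold change of Socs3 was -1.32 from day 3 to day 7 (SE 0.437, edgeR, adjusted p = 0.118) and 1.88 from day 7 to day 14 (SE 0.433, adjusted p = 0.309). DESeq2 called both steps (adjusted p = 0.0303 and 0.00422).

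In sensory nerve- rats Socs3 was 41.3, 42.8, 51.2 and 83.8 CPM at day 3, 27.2, 31.7, 37.3 and 36.6 CPM at day 7 and 50.9, 49.2, 59.3 and 128 CPM at day 14. Day 7 lay below both other days without overlap. The log2 fold changes were -0.74 (SE 0.241, adjusted p = 0.0887) and 1.12 (SE 0.324, adjusted p = 0.120), neither called by edgeR and both called by DESeq2. The mean of Socs3 was lowest at day 7 in both nerve states, and no step passed the main test in either.

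Zfp36 was 42.3, 37.8, 21.0 and 83.0 CPM at day 7 and 101.8, 163, 90.0 and 129 CPM at day 14 with the nerve, without overlap (log2 fold change 1.42, SE 0.397, adjusted p = 0.415; DESeq2 adjusted p = 0.0445). Without the nerve it was 46.9, 51.2, 51.9 and 73.8 CPM and then 112, 57.9, 94.0 and 141 CPM, with overlap through 1 rat (log2 fold change 0.86, SE 0.280, adjusted p = 0.139). Irak3 in the same step had log2 fold changes of 0.73 (SE 0.267, adjusted p = 0.497) and 0.65 (SE 0.187, adjusted p = 0.119) and no overlap in either nerve state. Members without overlap from day 7 to day 14 were thus 3 of 10 with the nerve (Socs3, Zfp36, Irak3), against 5.78% of all genes, and 2 of 10 without it (Socs3, Irak3), against 12.3%. Few genes passed in this step at all, 0.0202% with the nerve and 0.0138% without it.

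For Tnfaip3, no step through day 7 passed the main test. In sensory nerve- rats it was 47.3, 49.5, 54.6 and 84.3 CPM at day 7, above all 4 day 3 rats, and its log2 fold change was 1.08 (SE 0.290, edgeR adjusted p = 0.0522). DESeq2, library-total scaling and the fit over all 23 rats each called it. From day 7 to day 14 its log2 fold change was -0.09 (SE 0.228). With the nerve the day 7 values of Tnfaip3 were 55.1, 44.6, 19.0 and 46.0 CPM and overlapped day 3 (log2 fold change 0.46, 95% interval -0.50 to 1.41). Tnfaip3 and Socs3 were the 2 of 10 members without overlap from day 3 to day 7 in sensory nerve- rats, against 21.7% of all genes, and 10.5% of all genes were called there. Nfkbia at day 7 had the widest spread of the feedback genes, 35.7 to 145.5 CPM with the nerve and 49.0 to 203 CPM without it, and passed in no step through that day.

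A comparison within each rat does not depend on how libraries were scaled. The mean log2 level of the 5 feedback genes minus that of the 3 receptor genes was 0.23 ± 0.14, 0.59 ± 0.38 and 1.89 ± 0.30 at days 3, 7 and 14 in sensory nerve+ rats. It was 0.11 ± 0.15, 0.40 ± 0.38 and 1.62 ± 0.30 in sensory nerve- rats (SD). The lowest day 14 rat of either nerve state, at 1.25, lay above the highest day 7 rat, at 1.06. The zero of this scale has no meaning because the genes differ in length, and the value is given as a description, since its members had been chosen with their changes known.

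As a further description, the log2 level of Cd14 minus that of Irak3 was 2.24 to 3.00 at day 3, 0.90 to 2.04 at day 7 and -0.51 to 0.46 at day 14 in sensory nerve+ rats. In sensory nerve- rats it was 2.18 to 3.12, 0.96 to 2.48 and -0.61 to 0.63. Day 14 lay apart from both earlier days in each nerve state. From day 3 to day 14 Cd14 was called lower in both nerve states, and Irak3 was called higher only in sensory nerve- rats. The separation follows from the choice of this pair and adds no support to any of these calls. Sensory nerve- and sensory nerve+ rats overlapped at each day.

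**Figure D3:**
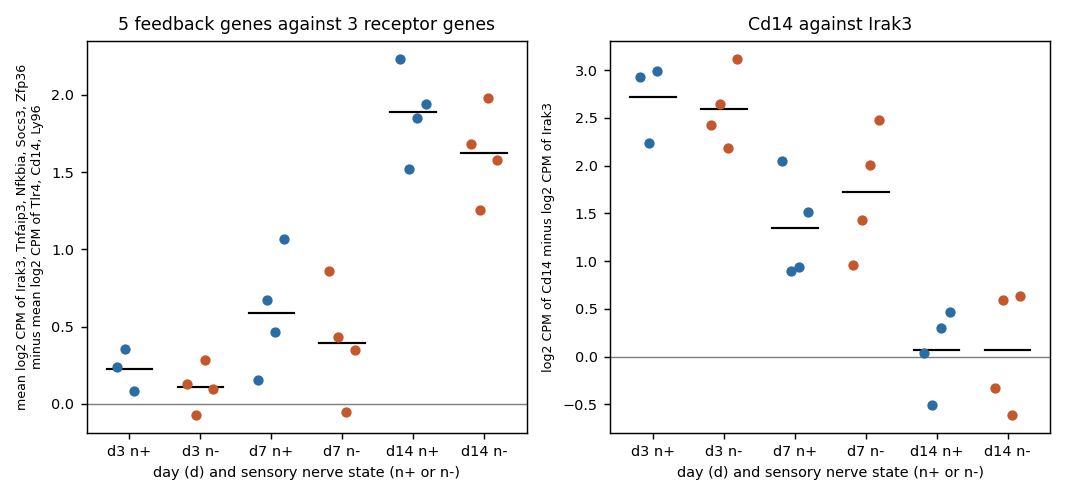
Left, mean log2 CPM of the 5 feedback genes minus that of the 3 receptor genes in each rat; right, log2 CPM of Cd14 minus that of Irak3 in each rat; blue points are sensory nerve+ rats, orange points sensory nerve- rats and bars are group means. All 8 day 14 rats lie between 1.25 and 2.24 on the left, above every earlier rat, and between -0.61 and 0.63 on the right, below every earlier rat.

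Markers of other cells also differed between the days. The summed level of 8 neutrophil markers had group medians of 190, 57.4 and 956 CPM at days 3, 7 and 14 with the nerve and 123, 110 and 852 CPM without it. One sensory nerve+ day 14 rat, replicate 2, reached 6130 CPM. It was the highest of its group for Irak3 and Zfp36 among the feedback genes and the lowest for Socs3 and Nfkbia. Sensory nerve- day 14 replicate 4, at 4314 CPM, was the highest of its group for Socs3, Nfkbia, Zfp36 and Tnfaip3 but not for Irak3. Over the 23 rats each feedback gene was correlated with the neutrophil marker sum on the log2 scale. The Pearson r was 0.849 for Zfp36, 0.720 for Irak3, 0.646 for Nfkbia, 0.548 for Socs3 and 0.320 for Tnfaip3. With the lymphocyte marker sum it was 0.832, 0.844, 0.627, 0.517 and 0.434 in the same order. With the erythroid marker sum it was 0.613, 0.487, 0.669, 0.568 and 0.296. The strongest r of Tnfaip3 was -0.860, with the epithelial marker sum. The correlations were thus not particular to neutrophils. The 6 lymphocyte markers had medians of 45.0, 18.8 and 145 CPM with the nerve and 45.0, 36.7 and 259 CPM without it. The 4 epithelial markers had medians of 418 and 170 CPM at day 3 and 10.8 and 4.19 CPM at day 14, and the 5 endothelial markers of 304 and 363 CPM at day 3 and 680 and 657 CPM at day 14, with and without the nerve. Muscle markers were 18.8 to 464 CPM at day 3 and 219 CPM or more at every later day. The part of these cells in the values of the 10 genes was not tested.

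No member passed between sensory nerve- and sensory nerve+ rats at any day. At day 3, 8 of the 10 had a negative log2 fold change in sensory nerve- against sensory nerve+ rats, from -0.43 for Tlr4 to -0.04 for Irak3, and Ly96 and Ticam1 were positive at 0.20 and 0.03. Their median was -0.22 against -0.01 for all genes. That direction was not kept without 1 rat: without sensory nerve+ day 3 replicate 1, which held the highest level of 9 of the 10 members in its group, all 10 were positive, with a median of 0.09. No member separated, against 1.61% of all genes, and the adjusted p was 1.00 for each. edgeR called 0% of all genes at day 3, although 122 genes had an unadjusted p under 0.05, and DESeq2 called 0.

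At day 7 all 10 members were higher on average without the nerve, from 0.23 for Ticam1 to 0.72 for Cd14, with a median of 0.38 against -0.01 for all genes. Without sensory nerve- day 7 replicate 4, Nfkbia turned negative at -0.29 and Cd14 was 0.30. Over the 8 fits that left out 1 rat, the lowest value of Zfp36 was 0.04 (without sensory nerve+ replicate 3). The lowest value of Ticam1 was 0.05 (without sensory nerve- replicate 3). None passed (adjusted p = 1.00 for each), none separated, against 0.754% of all genes, and 0% of all genes were called, with 215 at an unadjusted p under 0.05 and 1 called by DESeq2. Cd14 was 72.5 ± 34.1 CPM with the nerve and 119 ± 67.3 CPM without it (95% interval of the log2 fold change -0.42 to 1.85). Ly96 was 21.9 ± 8.57 and 34.7 ± 16 CPM (0.66, 95% interval -0.26 to 1.59) and Tnfaip3 41.2 ± 15.5 and 58.9 ± 17.2 CPM (0.52, 95% interval -0.23 to 1.26). The summed macrophage markers stood at a median of 5213 CPM with the nerve and 9732 CPM without it at this day, and their part in the shared direction was not tested. With 4 rats a group, the interval of each of the 10 members included 0.

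At day 14, 8 members were positive and Socs3 (-0.44) and Zfp36 (-0.27) negative. Tnfaip3 was 46.0, 43.3, 41.9 and 38.4 CPM with the nerve and 52.8, 48.2, 47.8 and 71.6 CPM without it. The groups did not overlap, which was true of 3.37% of all genes, and the log2 fold change was 0.36 (95% interval 0.02 to 0.71, adjusted p = 0.519). Nfkbia (0.31, adjusted p = 0.524), Ly96 (0.41, adjusted p = 0.519) and Ticam1 (0.52, adjusted p = 0.519) had the next narrowest tests. Of all genes 0% were called, with 1362 at an unadjusted p under 0.05 and 103 called by DESeq2, none of them a member. Here too the direction depended on the scaling: by library total the median of all genes moved by -0.41, and 7 of the 8 positive members, Tnfaip3 included, turned negative.

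Pooled over the 3 days, 8 members were positive, and the smallest adjusted p was 0.860 for Ly96 (log2 fold change 0.45, SE 0.196). Of all genes 0% passed in the pooled test and 0% in the interaction of transection with day, with 811 and 475 genes at an unadjusted p under 0.05 and 1 and 0 called by DESeq2. The interaction p of the members lay between 0.162 for Tlr4 and 0.709 for Irak3 before adjustment, all with an edgeR adjusted p of 0.998. The largest shift between days was that of Tlr4, whose transection effect was 0.90 higher on the log2 scale at day 7 than at day 3.

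**Figure D4:**
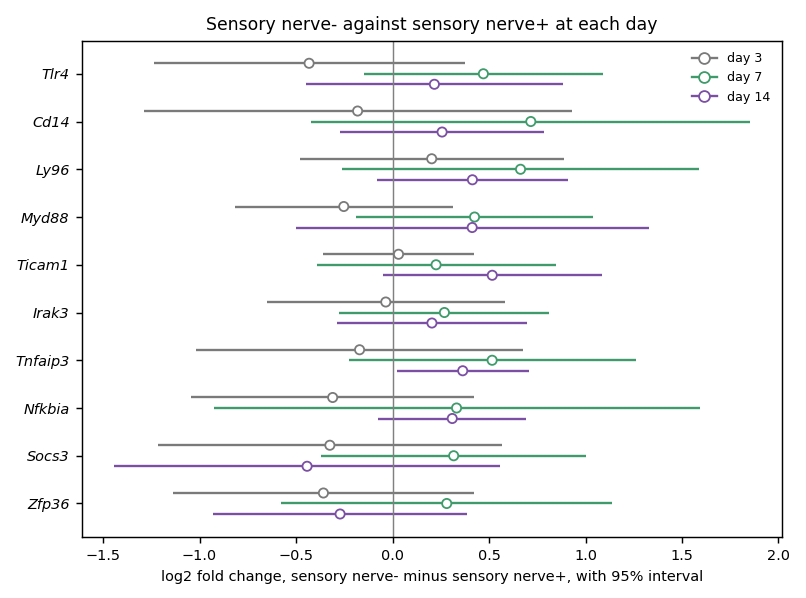
Log2 fold change of sensory nerve- against sensory nerve+ rats for each gene, with its 95% interval, at day 3 (grey), day 7 (green) and day 14 (purple). No gene passed the adjusted threshold at any day; the day 7 values are all above 0 and lie between 0.23 and 0.72, and Tnfaip3 at day 14 has the only interval that leaves out 0.

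In LPS-stimulated RAW 264.7 macrophages the receptor, adaptor and feedback genes were expressed at very different levels, which can be compared per length of exon. Cd14 stood highest at 1198 ± 28.8 CPM per kb (SD, n = 6), followed by Nfkbia at 207 ± 2.74, Socs3 at 99.4 ± 1.05, Myd88 at 80.6 ± 0.966 and Zfp36 at 60.8 ± 2.0 CPM per kb. Ticam1 followed at 18.5 ± 0.238, Irak3 at 9.80 ± 0.380, Tnfaip3 at 7.31 ± 0.122, Ly96 at 7.08 ± 0.348 and Tlr4 at 4.97 ± 0.222 CPM per kb. Only Tnfaip3 and Ly96 overlapped among neighbours in this order within their SD. The co-receptor mRNA was thus far more abundant than that of the signalling chain and of MD-2.

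The lengths come from mm10 with GENCODE annotation. Tlr4 lies at chr4:66827584-66930284 (+, 5556 exonic bases), Ly96 at chr1:16688051-16709611 (+, 1021), Myd88 at chr9:119335934-119341411 (-, 2576) and Ticam1 at chr17:56269319-56276786 (-, 2992). Among the feedback genes, Irak3 lies at chr10:120141648-120202130 (-, 3676), Tnfaip3 at chr10:19000910-19015657 (-, 7226), Nfkbia at chr12:55489410-55492647 (-, 1610), Socs3 at chr11:117966079-117970047 (-, 2891) and Zfp36 at chr7:28376784-28380253 (-, 3470). Reads were counted over exons of the whole gene.

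None of the 10 genes passed when CGRP was added to LPS. In this comparison 0.0222% of all genes passed (limma on log2 CPM, 3 of 13492), edgeR on recovered reads called 0 members, and the 95% intervals of all members lay between -0.18 and 0.15 on the log2 scale. Unlike in the rats, the spread between samples was small, so that differences beyond those bounds were outside every member's interval on this scaling. The sources used here do not say whether the samples were separate cultures. The intervals may therefore hold technical spread only, and they do not bound a difference between cultures. 1357 genes, Myd88, Irak3 and Zfp36 among them, had an unadjusted p under 0.05.

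Myd88 came nearest to a call. It was 204.3 to 210.7 CPM with LPS (median 207.1) and 200.7, 201.4, 203.6, 200.5 and 200.4 CPM with LPS+CGRP, so that every CGRP sample lay below every LPS sample, as in 1.11% of all genes. The means were 207.5 ± 2.49 and 201.3 ± 1.35 CPM. The log2 fold change was -0.04 (SE 0.0122, limma adjusted p = 0.245). DESeq2 on the recovered reads called it with adjusted p = 0.0357, and over all alternatives the adjusted p ran from 0.0357 to 0.845.

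Irak3 was 33.9 to 37.5 CPM with LPS (median 36.5) and 37.1, 38.0, 37.8, 40.1 and 38.7 CPM with LPS+CGRP, overlapping only at the edge. Its log2 fold change of 0.09 (95% interval 0.03 to 0.15, limma adjusted p = 0.313) was the largest positive one. Zfp36 was 211 ± 6.95 and 204 ± 2.27 CPM (-0.05, adjusted p = 0.458). Cd14 was 2075 ± 49.8 and 2024 ± 38.6 CPM, and Ly96, the most variable member, 7.23 ± 0.355 and 6.85 ± 0.458 CPM (95% interval -0.18 to 0.03). Tlr4, Ticam1, Tnfaip3, Nfkbia and Socs3 had log2 fold changes between -0.03 and 0.01. The sign of such small values followed the scaling: with the deposited signal not rescaled, the median of all genes moved by 0.11 and all 10 members were positive.

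**Figure D5:**
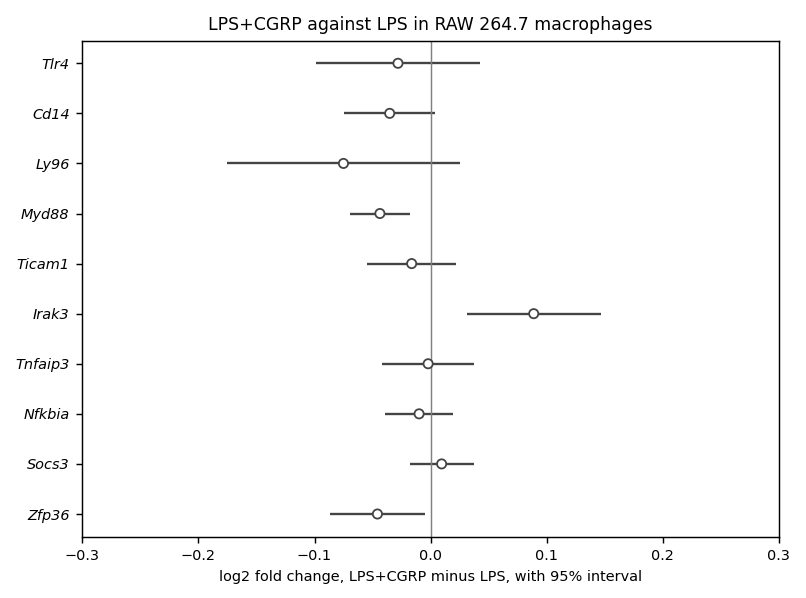
Log2 fold change of LPS+CGRP against LPS in RAW 264.7 macrophages for each gene, with its 95% interval (6 LPS and 5 LPS+CGRP samples). Every interval lies between -0.18 and 0.15 and no gene passed the adjusted threshold; Irak3 is furthest above 0, and Ly96 has the widest interval.

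Other genes of the pathway were read from lists of 65 genes in all: LPS-binding proteins and other Toll-like receptors (12), adaptors and kinases (19), transcription factors (10) and other feedback inhibitors (24). With CGRP 0 of the 62 tested passed in macrophages, and with transection 0 of 64 or 65 passed in the rats. With transection 46 of 65 were negative at day 3, 56 of 64 positive at day 7 and 58 of 64 positive at day 14. Their medians were -0.05, 0.33 and 0.28, against -0.01, -0.01 and 0.03 for all genes. These directions were not refitted without single rats or by library total. Those of the members depended on 1 rat at day 3 and on the scaling at day 14. At day 7 the table and the transection cannot be told apart. Of the targets of the TRIF branch, Cxcl10, a chemokine induced through interferon, was the 1 of 8 called in macrophages, falling from 453 ± 16.7 CPM with LPS to 403 ± 16 CPM with LPS+CGRP (log2 fold change -0.17, SE 0.0265, limma adjusted p = 0.0322). edgeR on the recovered reads called no gene in this comparison, so the call of Cxcl10 was not kept there. All 8 targets of this branch had negative log2 fold changes, with a median of -0.105 against 0.0004 for all genes. Rsad2, Ifit2, Ccl5 and Ifit1 also lay lower without overlap, as did 0.645% of all genes. None of these passed (limma adjusted p = 0.0551, 0.0587, 0.0875 and 0.254 in that order), and Isg15, Irf1 and Ifnb1 overlapped. The shared direction was not tested or refitted under other scalings.

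Of the other feedback inhibitors, 5 of 24 rose and 0 fell from day 3 to day 14 in sensory nerve- rats, where 8.89% of all genes were called higher and 14.6% lower, and 0 of 23 passed in sensory nerve+ rats. The 5, named after their values were seen, were Sigirr, Dusp1, Tnip1, Cish and Zc3h12a. Dusp1, a phosphatase that switches off MAP kinases, rose from 27.7 ± 5.06 to 149 ± 88.3 CPM (log2 fold change 2.38, SE 0.454, adjusted p = 0.0108). Irf3, the transcription factor below TRIF, rose from 71.9 ± 5.88 to 144 ± 14.5 CPM (0.96, SE 0.126, adjusted p = 0.00332), and Cd180, a relative of Tlr4 on B cells and macrophages, fell from 70.4 ± 17.7 to 33.0 ± 12.6 CPM (-1.13, SE 0.290, adjusted p = 0.0274). In all 9 of the 65 rose and 1 fell there, against 8.89% and 14.6% of all genes. From day 3 to day 7 without the nerve 2 rose (Dusp1 and Irf3), against 3.68% of all genes called higher, and 0 passed in the 4 other steps. In total 10 of 65 and 2 of 65 were called in these comparisons, no more than the 23.5% and 10.5% of all genes.

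Products of the pathway were read from a list for each branch, and the branches were not tested against each other. Of 7 tested targets mainly of the MyD88 branch, 3 fell between days 3 and 7 with the nerve, against 1.79% of all genes called lower. Tnf fell from 7.88 ± 3.81 to 1.21 ± 0.591 CPM (log2 fold change -2.66, SE 0.569, adjusted p = 0.0399) and Cxcl1 and Cxcl2, neutrophil chemokines, fell by 5.14 and 5.06 on the log2 scale. Without the nerve 4 of 7 (Ptgs2, Tnf, Cxcl1 and Cxcl2, the last named after its value was seen) fell in the same step, against 6.77% of all genes, Ptgs2 by 3.66 and Tnf by 2.12. At day 14 against day 3, Tnf (-3.04) and Cxcl2 (-5.19) were lower with the nerve, and without it Ptgs2 (-1.89) was lower and Il1b, named after its value was seen, higher (2.70). Of 7 tested targets mainly of the TRIF branch, 1 rose between these days with the nerve (Ifit2, against 2.69% of all genes called higher) and 4 without it (Ccl5, Irf1, Ifit2 and Isg15, against 8.89%), all named after their values were seen.

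Of 10 genes listed for the CGRP receptor and the response to cAMP, the messenger through which the CGRP receptor signals, 3 rose from day 3 to day 14 with the nerve, against 2.69% of all genes, and 5 without it, against 8.89%. Of the 5 endothelial markers, 0 rose with the nerve and 3 without it between the same days, and their part was not tested. Per1 rose from 32.7 ± 5.12 to 101 ± 22.6 CPM with the nerve (log2 fold change 1.64, adjusted p = 0.0272) and from 32.7 ± 2.77 to 107 ± 11.4 CPM without it (1.66, adjusted p = 0.000905). Nr4a1 rose by 2.44 and 1.95 on the log2 scale between the same days. Calcrl, the receptor chain itself, rose between days 3 and 7, by 1.58 with the nerve and 1.63 without it (SE 0.333 and 0.237). In the macrophages 0 of the 8 genes tested from this list passed with CGRP.

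For each member, 1 gene ran most like it over the 23 rats. Of 15848 genes, the highest Pearson correlation of log2 CPM was with Cd200r1 for Tlr4 (0.915), Prdx5 for Cd14 (0.950), Rab7a for Ly96 (0.941), Tspo for Myd88 (0.967) and Edem2 for Ticam1 (0.892). For the feedback genes it was RT1-CE4 for Irak3 (0.929), Relb for Tnfaip3 (0.909), Birc3 for Nfkbia (0.895), Nfkbiz for Socs3 (0.827) and Csrnp1 for Zfp36 (0.956). These are descriptions over rats that share days, libraries and cell mixture.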

How the data were processed

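Rat libraries were sequenced by the authors on the DNBSEQ platform, aligned to mRatBN7.2 with HISAT (Bowtie2 is also listed), and deposited in the form of expected counts per gene, which were rounded. Macrophage libraries (NextSeq 2000, Cutadapt, STAR, mm10, featureCounts) were deposited as a normalized signal in 2 runs per sample; every value was a whole number of reads times 1 factor per run (100% within 0.001 reads), so counts were recovered for alternatives and runs summed. Rats were compared with edgeR 4.0.16 (quasi-likelihood, TMM, filterByExpr, R 4.3.3), each comparison on its own groups, and all 23 rats for the pooled and interaction tests. Macrophages were compared with limma 3.58.1 on log2(CPM + 0.5). Fold changes there are on that scale. Adjusted p-values (Benjamini-Hochberg, threshold 0.05) cover all genes tested; intervals are 95%. Comparisons that share a group are not independent. DESeq2 1.42.0 and the other scalings, filters, blocks and left-out samples were alternatives. Leaving out haemoglobin genes was added after seeing the data. The members and lists were chosen with earlier results of these data known. Every member was named, with up to 3 genes per direction of smallest p among called genes of the other lists, and the nearest gene to each member by correlation. The sources used here do not say whether macrophage samples were separate cultures, so those p-values may measure technical spread. Depths of 14854598 counts or more limit only rare genes. The tests were checked on simulated data.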

Additional observations from a re-analysis of the deposited data

Results flagged for a closer look

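In 70 groups of values (10 genes in the 5 rat groups of 4 rats and the 2 macrophage groups), 5 held a sample far from the rest, meaning that its gap to the nearest other sample exceeded Dixon's 95% critical share of the group's range. Chance alone flags about 1 group in 20, so these 5 are few more than that. Socs3 in sensory nerve- day 14 replicate 4 was 128 CPM, with the next rat at 59.3 CPM. In sensory nerve+ day 14 replicate 2, Irak3 was 61.9 CPM (next 39.2 CPM) and Ticam1 18.3 CPM (next 11.1 CPM); this rat also held the highest neutrophil marker sum, 6130 CPM. Ly96 in sensory nerve- day 3 replicate 3 was 15.6 CPM, below the next rat at 28.1 CPM. Tnfaip3 in LPS+CGRP replicate 2 was 54.9 CPM, against 52.5 CPM in the next sample. In 60 checks, each of 1 gene in 1 pair of contrasts, no gene separated without overlap upward in one contrast and downward in the other.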

How the results depend on the processing

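No called value of a member changed sign under any alternative run, and no member passed a transection comparison under any. DESeq2 called 1 member with CGRP (Myd88) and, by step, 1 and 2 with the nerve (day 3 to 7, day 7 to 14) and 2 and 2 without it, where the main fits called 0. Library-total scaling and the fit over all 23 rats each called 1 (Tnfaip3) from day 3 to 7 without the nerve. From day 3 to 14 with the nerve (1 called) the fit over all rats called 2 and the replicate block 0; without the nerve (4 called) library-total scaling called 1. Leaving out single rats gave 0 to 2 called members from day 3 to 14 with the nerve, 2 to 5 without it, and 0 to 2 from day 7 to 14 without it (2, Irak3 and Zfp36, without sensory nerve- day 14 replicate 2).

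Replicate numbers were not treated as pairs in the main fits. In no comparison did every pair deviate together (pair correlations from -0.388 to 0.472), which cannot exclude pairing. With CGRP, 3 of 5 LPS samples correlated best with the LPS+CGRP sample of the same number. That count was 2 of 4 for transection at day 7 and 0 of 4 from day 3 to 7 without the nerve. With the replicate block, Cd14 from day 3 to 14 with the nerve had adjusted p = 0.358, Zfp36 passed without the nerve (adjusted p = 0.0405), and no other member's call changed.

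Counts over all genes moved more. Against 1002, 3 and 871 genes for the 3 steps with the nerve (3 to 7, 7 to 14, 3 to 14), DESeq2 called 2750, 335 and 3409, library-total scaling 579, 13 and 547, and the block 43, 0 and 0. Against 1524, 2 and 3396 without the nerve, DESeq2 called 3241, 2011 and 4927, library-total scaling 1217, 21 and 1184, and the block 2, 0 and 2350. The fit over all rats called 2606 (3 to 14 with the nerve), and 2287 and 927 (3 to 7 and 7 to 14 without it). For transection DESeq2 called 0, 1 and 103 genes at days 3, 7 and 14 against 0. For CGRP, against 3, DESeq2 called 87, edgeR 0, the block 28 and run 1 alone 7. Leaving out 1 rat gave 254 to 1547, 0 to 28 and 0 to 3133 genes with the nerve and 0 to 1359, 0 to 814 and 1620 to 4346 without it, and leaving out 1 macrophage sample 0 to 25. Depth was not limiting for the members, the rarest of which had 88 counts.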
